A study of Homo sapiens with 4 samples.

Results

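These data describe where FLAG-tagged ZFR, a zinc finger RNA-binding protein, was mapped by eCLIP on the RNA of SUZ12P1, a transcribed pseudogene, of its parent gene SUZ12 and of 3 genes for partners of the SUZ12 protein, EZH2, EED and JARID2. The 5 genes were taken from the peak lists by their Ensembl identifiers and held 1077 of 595484 listed peaks, in 5 of 17764 genes. SUZ12P1 was chosen by a measured value, the number of its peaks shared by both eCLIP libraries, and the other 4 for their relation to it. The sharing of SUZ12P1 peaks is therefore described and not tested.

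eCLIP sequences the RNA that ultraviolet light has joined to a protein and that comes down with its antibody, while the size-matched input is RNA from the same gel range without that enrichment. There were 2 eCLIP libraries and 2 inputs, numbered 1 and 2. All 4 came from Flp-In T-REx-293, a human embryonic kidney cell line. In every library the polyclonal cells carried FLAG-ZFR at the FRT site, induced with doxycycline at 1 µg/mL for 48 to 72 h, and were crosslinked at 400 mJ/cm2. Cells without the transgene were not analysed here, and no label ties the libraries to separate cultures, so the spread between them may be technical. The lists were of very unequal length, at 479308 and 41904 peaks for eCLIP 1 and 2 against 63068 and 11204 for input 1 and 2, with 3075352 and 229647 reads in peaks against 249245 and 102084. The whole number that closes each peak's name was read as its reads, which the files do not state. Sequencing depth is unknown.

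Polycomb repressive complex 2 (PRC2) methylates a lysine in the tail of histone H3, a mark of silenced genes. EZH2 is its catalytic subunit, SUZ12 and EED are core subunits that the enzyme needs to work, and JARID2 is an accessory subunit that helps bring the complex to chromatin. The complex is itself known to bind RNA. SUZ12P1 arose as a partial copy of SUZ12 on the same chromosome and is transcribed without coding for the full protein. Reads from stretches that the 2 genes share can be assigned to either or dropped. How such reads were handled is not given in the sources used here, so the values of SUZ12P1 and SUZ12 are uncertain to that extent.

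SUZ12P1 carried a dense run of ZFR eCLIP peaks along its span. The span ran from the first to the last listed peak over the 4 libraries, so its ends are peaks by definition and may differ from those of the gene. In hg19 coordinates counted from 1, ENSG00000264538 (SUZ12P1) had peaks on chromosome 17 (plus strand) between 29036346 and 29117672, a span of 81.3 kb. It held 234 peaks in eCLIP 1 and 103 in eCLIP 2, against 21 in input 1 and 22 in input 2. The parent, ENSG00000178691 (SUZ12), lay on the same strand at 30264137 to 30327797, a span of 63.7 kb, with 99 and 26 eCLIP peaks against 10 and 1 input peaks. Both genes thus had more listed peaks in each eCLIP library than in either input, and the pseudogene had more than the parent in all 4 libraries. These raw counts are not scaled to the very unequal lengths of the lists. How many genes share this order of raw counts was not counted. Scaled to list length, SUZ12 kept the order and SUZ12P1 did not, as the shares below show. The eCLIP peaks of SUZ12P1 also chose it, so its counts are a description.

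The 3 partner genes had fewer eCLIP peaks for their length than SUZ12P1. ENSG00000106462 (EZH2) had its peaks between 148506426 and 148581108 on chromosome 7 (minus strand), with 152 and 22 in eCLIP against 34 and 4 in input. ENSG00000008083 (JARID2) spread 275 and 22 eCLIP peaks, against 29 and 8 input peaks, over 273.03 kb of chromosome 6 (plus strand, 15247889 to 15520918). ENSG00000074266 (EED), located between 85956442 and 85988395 on chromosome 11 (plus strand), held 11 peaks in eCLIP 1 and none listed in eCLIP 2, against 3 and 1 in input 1 and 2. EED was the one member with no listed peak in an eCLIP library.

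Set on the length of each span, SUZ12P1 had 2.88 peaks per kb in eCLIP 1 and 1.27 in eCLIP 2, against 0.258 and 0.271 in input 1 and 2. SUZ12 had 1.56 and 0.408 peaks per kb in eCLIP against 0.157 and 0.0157, and EZH2 2.04 and 0.295 against 0.455 and 0.0536. JARID2 had 1.01 and 0.0806 peaks per kb against 0.106 and 0.0293, and EED 0.344 and 0 against 0.0939 and 0.0313. SUZ12P1 was thus the densest of the 5 in both eCLIP libraries and in input 2, while EZH2 was the densest in input 1. The 34 input 1 intervals of EZH2 formed 20 regions once touching ones were merged, and the 21 of SUZ12P1 formed 17. Among the 9698 genes with a peak in eCLIP 1 and a span of at least 10 kb, 45 genes, SUZ12P1 included, were at least as dense, and the median was 0.643 peaks per kb. In eCLIP 2 the same held for 24 of 6246 genes, with a median of 0.0609. SUZ12P1 was chosen for its many shared eCLIP peaks, so its density and its place among genes are a description.

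The eCLIP peaks of SUZ12P1 reached most of its span, again a description of the peaks that chose it. Of its 82 windows of 1 kb, 74 held the centre of a peak in eCLIP 1 and 60 in eCLIP 2, against 16 and 17 in input 1 and 2. Neighbouring peak centres lay a median of 0.201 kb apart in eCLIP 1 and 0.556 kb in eCLIP 2, and the widest gaps were 3.65 and 5.33 kb. In SUZ12, 49 and 22 of 64 windows held a peak in eCLIP against 7 in input 1, where the only peak of input 2 gives no gap to measure. The peaks covered 9.55% and 4.48% of the SUZ12P1 span in eCLIP, whereas input peaks covered 0.800% and 1.03%, and 4.99% and 1.18% of the SUZ12 span against 0.404% and 0.0565%.

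**Figure D1:**
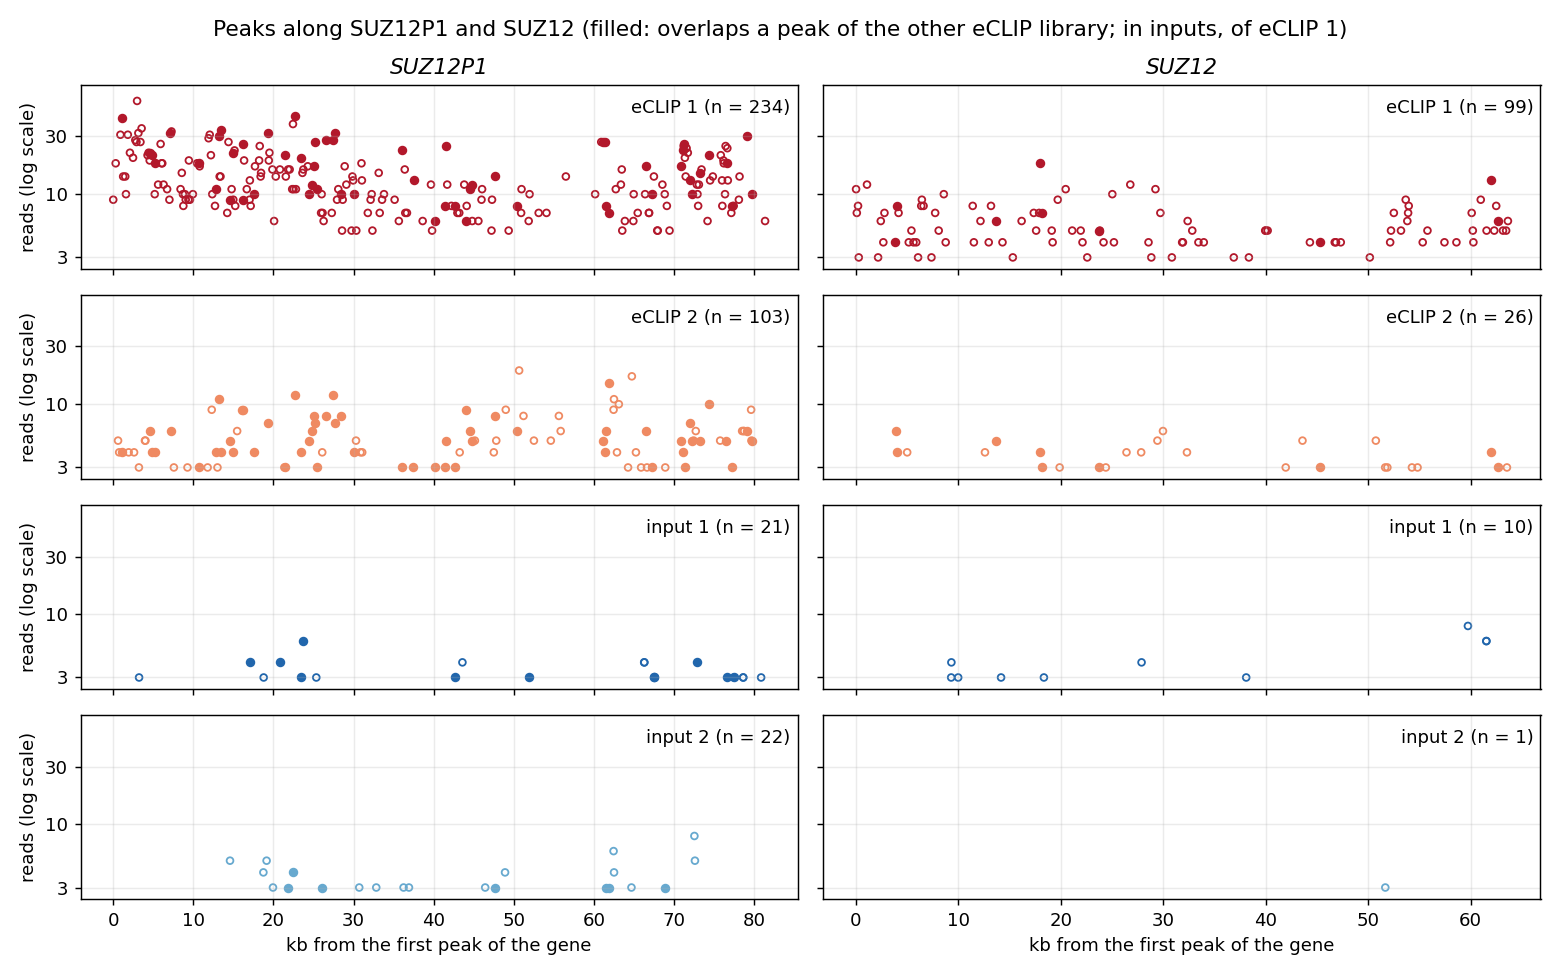
Peaks along SUZ12P1 (left) and SUZ12 (right) in the 4 libraries. The horizontal axis is the distance of a peak's centre from the first peak of the gene in kb, the vertical axis its reads on a log scale; filled points overlap a peak of the other eCLIP library (in the inputs, a peak of eCLIP 1). SUZ12P1 has 234 and 103 peaks in eCLIP, up to 59 reads, against 21 and 22 in the inputs, up to 8 reads; SUZ12 has 99 and 26 against 10 and 1.

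Along SUZ12P1 the eCLIP peaks lay on both sides of the middle of the span, and the intervals of the 2 libraries overlapped. In eCLIP 1, 60.7% of the peaks (Wilson 95% interval 54.3 to 66.7, which covers counting error only) lay in the first 5 of 10 equal parts of the span, and in eCLIP 2 47.6% (38.2 to 57.1). The inputs had 33.3% (17.2 to 54.6) and 50.0% (30.7 to 69.3) there. The first part held 13.7% (9.86 to 18.7) and 12.6% (7.53 to 20.4) of the eCLIP peaks. It held 4.76% (0.846 to 22.7) and 0% (0 to 14.9) of the input peaks, or 1 peak of 21 and 0 of 22. These intervals overlapped, and the span began at an eCLIP 1 peak. The last part held 10.3% and 11.7% against 28.6% and 0%, so it did not separate the groups. In SUZ12 the first 5 parts held 58.6% (48.7 to 67.8) and 53.8% (35.5 to 71.2) of the eCLIP peaks against 60.0% (31.3 to 83.2) of the 10 peaks of input 1.

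EZH2 and JARID2 had a larger share of their eCLIP peaks on the 5′ side than SUZ12P1, a difference that was not tested. In EZH2 the first 5 parts held 68.4% (60.7 to 75.3) and 77.3% (56.6 to 89.9) of the eCLIP peaks against 52.9% (36.7 to 68.5) in input 1 and 75.0% of only 4 peaks in input 2. The last part of EZH2 held 1.97% (0.673 to 5.64) and 0% (0 to 14.9) of the eCLIP peaks against 23.5% (12.4 to 40.0) in input 1 and 0% in input 2. The input 1 peaks in that part lay in touching pairs, so their interval is too narrow. They also set the 3′ end of the 74.7 kb span, where the last eCLIP peak lay at 72.9 kb. In JARID2 the first 5 parts held 72.0% (66.4 to 77.0) and 95.5% (78.2 to 99.2) in eCLIP against 69.0% (50.8 to 82.7) and 87.5% (52.9 to 97.8). The groups overlapped for both genes. EED had 6 of its 11 eCLIP 1 peaks in the first 5 parts, and its span begins at the lone peak of input 2.

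SUZ12P1 peaks were also the strongest of the 5 genes in eCLIP. In eCLIP 1 they had 5 to 59 reads with a median of 12, against a median of 4 over all peaks of that library. None of these SUZ12P1 peaks had 3 reads, against 32.0% of all peaks of that library. In eCLIP 2 they had 3 to 19 reads with a median of 5, against a median of 3. In the inputs the SUZ12P1 peaks had medians of 3 and 3 reads and at most 6 and 8, while all input peaks had medians of 3 and 4. The pseudogene thus stood above its libraries in eCLIP and at or below them in the inputs. These medians come from the same eCLIP peaks that chose the gene and are a description. Whether the number of reads needed to list a peak differed between genes was not tested.

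The parent and the partners had weaker peaks. SUZ12 had a median of 5 reads in eCLIP 1 and 4 in eCLIP 2, EZH2 6 and 4, and JARID2 5 and 3, while the 11 peaks of EED in eCLIP 1 had a median of 3. Their input peaks had medians between 3 and 3.5 reads. Of the 5794 genes with at least 20 peaks in eCLIP 1, 198, SUZ12P1 included, had a median of at least 12 reads, and the median over these genes was 4. For eCLIP 2, 55 of 420 such genes reached 5 reads. The authors' p-value was at most 0.001 for 185 of the 234 SUZ12P1 peaks in eCLIP 1 and 27 of 103 in eCLIP 2, against 1 of 21 and 2 of 22 in input 1 and 2. The shares were 79.1% and 26.2% in eCLIP, against 4.76% and 9.09%, where all peaks of the libraries stood at 23.3% and 21.9% in eCLIP, against 12.6% and 28.7%. For SUZ12 these counts were 30 of 99 and 2 of 26 against 3 of 10 and 0 of 1.

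**Figure D2:**
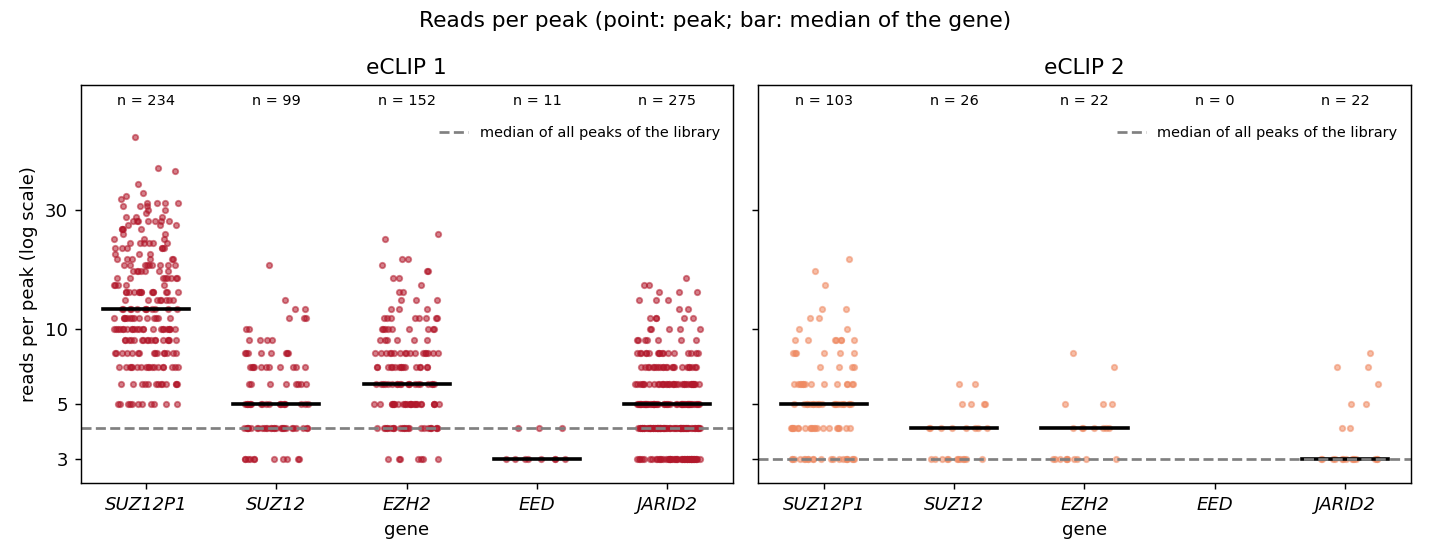
Reads per peak (log scale) of the 5 genes in eCLIP 1 (left) and eCLIP 2 (right), 1 point per peak, with a bar at the gene's median and a dashed line at the median of all peaks of the library. SUZ12P1 has medians of 12 and 5 reads, against 4 and 3 for all peaks; EED has 11 peaks in eCLIP 1 and none listed in eCLIP 2.

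The peaks of the 2 eCLIP libraries met more often in SUZ12P1 than in the lists as a whole, the value by which it was chosen. Overlap means at least 1 shared base on the same strand. In SUZ12P1, 56 of 234 eCLIP 1 peaks (23.9%) overlapped an eCLIP 2 peak, against 2.96% of all eCLIP 1 peaks, and 56 of 103 eCLIP 2 peaks (54.4%) overlapped an eCLIP 1 peak, against 33.1% of all. SUZ12P1 peaks had median widths of 33 and 32 bases in eCLIP 1 and 2, so overlap alone brings centres close. The matched SUZ12P1 peaks lay a median of 5.5 bases apart, centre to centre (3 in SUZ12, 6 in EZH2, 7 in JARID2), and shared a median of 30 bases. Their reads in the 2 libraries were weakly related (Spearman's rho 0.178, Pearson's r 0.189, over 56 pairs of sites of 1 gene, given as a description). Shared peaks had a median of 17 reads in eCLIP 1 against 11 for the others, while in eCLIP 2 both medians were 5.

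In SUZ12, 9 of 99 eCLIP 1 peaks (9.09%) overlapped an eCLIP 2 peak, in EZH2 12 of 152 (7.89%) and in JARID2 7 of 275 (2.55%). Seen from eCLIP 2 the shares were 34.6% of 26 peaks for SUZ12, 54.5% of 22 for EZH2 and 31.8% of 22 for JARID2. By that share EZH2 stood beside SUZ12P1, and SUZ12 and JARID2 beside the whole list at 33.1%.

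Of the shared eCLIP 1 peaks of SUZ12P1, 50 overlapped no input peak and 6 overlapped one. No more than 2 genes had more such eCLIP-only peaks than SUZ12P1. For the partners every shared peak was free of input peaks, which gave 9 in SUZ12, 12 in EZH2, 7 in JARID2 and 0 in EED. Of all genes with a peak in eCLIP 1, 24.6% had at least 1, so that 4 of the 5 members had one, but this is the value the choice used and nothing is read from it. Input overlap was rare over all genes, at 1.53% of eCLIP 1 peaks for input 1 and 0.643% for input 2. Its absence from the few shared peaks of SUZ12, EZH2 and JARID2 therefore says little. The eCLIP 1 peaks of SUZ12P1 met the inputs more often, at 4.70% and 2.99%, or 18 of 234 with either. The input peaks of SUZ12P1 met eCLIP peaks as well. In input 1, 11 of 21 peaks (52.4%, 32.4 to 71.7) overlapped a peak of eCLIP 1, against 12.8% of all input 1 peaks. For input 2 it was 7 of 22 (31.8%, 16.4 to 52.7), against 25.1%. The 2 inputs met each other at 1 SUZ12P1 peak.

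**Figure D3:**
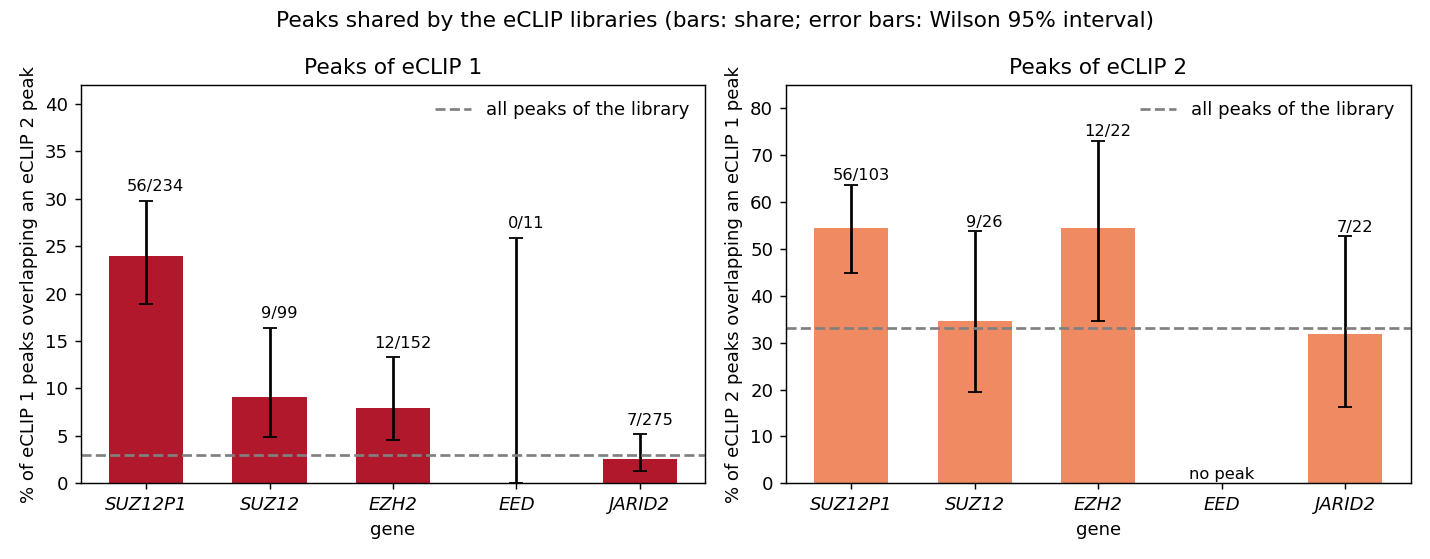
Share of eCLIP 1 peaks that overlap an eCLIP 2 peak (left) and of eCLIP 2 peaks that overlap an eCLIP 1 peak (right) in each gene, with Wilson 95% intervals and the number of peaks; the dashed line is the share over all peaks of the library. SUZ12P1 reaches 23.9% and 54.4%, against 2.96% and 33.1% over all peaks; EZH2 reaches 54.5% on the right with 12 of 22 peaks.

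The shared SUZ12P1 site with most reads lay at chr17:29058940-29059041 on the plus strand, with 44 reads in eCLIP 1 (authors' p-value 5.91e-17) and 12 in eCLIP 2 (1.19e-06). The nearest input peak lay 150 bases away, in input 2. The next 4 began at 29037366, 29049802, 29063957 and 29043447, with 43, 34, 32 and 32 reads in eCLIP 1 and 4, 4, 7 and 6 in eCLIP 2. None of the 5 overlapped an input peak. They lay 1.02 to 27.6 kb from the first peak, in the 5′ part of the span.

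The strongest peaks of each library were not among them. The peak with most reads in eCLIP 1, at chr17:29039301-29039365 with 59 reads, overlapped no peak of the other libraries, and neither did that of eCLIP 2, at chr17:29086957-29087019 with 19 reads. Both were singled out after their values were seen. Of the 16 SUZ12P1 peaks with at least 30 reads in eCLIP 1, 8 were found in eCLIP 2.

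In the partners the best shared sites were smaller. SUZ12 had 18 reads in eCLIP 1 and 4 in eCLIP 2 at chr17:30282134-30282186, and 13 and 4 at chr17:30326108-30326138. EZH2 had 23 and 4 at chr7:148555494-148555559, and 13 and 3 at chr7:148566898-148566929, where the eCLIP 2 peak was 2 bases wide. JARID2 had 13 and 3 at chr6:15281504-15281547, and 11 and 3 at chr6:15251709-15251759. None of these overlapped an input peak.

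Few peaks were listed on the opposite strand. Every listed peak carries a gene identifier, so these counts can miss signal where no gene is annotated. The share over all genes was not counted. Within the SUZ12P1 span the minus strand held 6 and 1 peaks in eCLIP, against 2 and 0 in input 1 and 2, and the spans of the other 4 genes held none in any library. On the plus strand, 4 and 2 of the SUZ12P1 peaks in eCLIP and 1 in each input were also listed under ENSG00000263603.1, an overlapping gene that the files do not name.

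As shares of all peaks of a library, SUZ12P1, EZH2 and JARID2 did not set eCLIP apart from input. SUZ12P1 took 4.88 and 24.6 of every 10000 peaks in eCLIP 1 and 2, against 3.33 and 19.6 in input 1 and 2. Both libraries numbered 2, the shorter lists, lay above both numbered 1, so the groups overlapped. SUZ12 took 2.07 and 6.20 against 1.59 and 0.893 and was the one member with both eCLIP libraries above both inputs, by a small margin for eCLIP 1 over input 1. Over all 8914 genes with at least 10 peaks, 21.1% showed that order. EZH2 took 3.17 and 5.25 against 5.39 and 3.57, JARID2 5.74 and 5.25 against 4.60 and 7.14, and EED 0.229 and 0 against 0.476 and 0.893. EED, with 15 peaks in all, lay below both inputs in both eCLIP libraries. That order rested on 11 and 0 eCLIP peaks against 3 and 1 input peaks. Its share over all genes was not counted, so nothing is read from it.

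limma, fitted to log2(peaks per 10000 + 0.5) over all 8914 genes, called 0% of genes higher and 0% lower in eCLIP at an adjusted p under 0.05. At an unadjusted p under 0.05 it gave 112 higher and 62 lower, and voom called 0 higher and 8 lower after adjustment. On this log2 scale the difference of eCLIP minus input was 1.28 for SUZ12 (SE 0.80), -0.092 for EZH2 (SE 0.83), -0.95 for EED (SE 0.73) and -0.060 for JARID2 (SE 0.87), against a median of 0.16 over all genes. None of the 4 passed, with an adjusted p of 0.995 for the first 3 and 0.997 for JARID2 (limma, two-sided). The difference for SUZ12P1 was 0.40 (SE 1.10) and is given without a p, since its eCLIP peaks chose it. It was -0.71 without eCLIP replicate 2 and -0.79 without input replicate 1.

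Measures that weigh the strength of peaks placed SUZ12P1 differently. Its share of the reads in peaks was 11.2 and 25.8 per 10000 in eCLIP against 2.89 and 8.23 in input 1 and 2. Both eCLIP libraries lay above both inputs, an order shown by 25% of the 8914 genes. SUZ12 showed it too, at 1.88 and 4.35 in eCLIP against 1.73 and 0.294 in input 1 and 2. Mitochondrial RNA held 3.47% and 8.57% of the reads in peaks in eCLIP against 1.67% and 30.5% in input 1 and 2. With it left out, an alternative added after seeing the data, the shares of SUZ12P1 were 11.6 and 28.2 against 2.94 and 11.8, and eCLIP 1 and input 2 changed places. By that measure 23.6% of genes had both eCLIP libraries above both inputs, and SUZ12 was the one member among them, at 1.95 and 4.76 against 1.75 and 0.423.

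When each list was limited to its best-ranked 11204 peaks, SUZ12P1 held 40 and 36 peaks in eCLIP, against 1 and 22 in input 1 and 2, or 35.7 and 32.1 per 10000 against 0.893 and 19.6. Among the 959 genes that these shortened lists kept at a summed minimum of 10, 32.8% showed that order. SUZ12, EZH2 and JARID2 were among those genes and did not show it, and EED had too few peaks to be counted. Input 2 entered with its whole list and the others with their best part, so the lists were equal in length and not in strength. The limma difference for SUZ12P1 was 2.70 (SE 1.31) in these lists, where the median gene stood at 0.68, and 1.69 (SE 0.84) by reads in peaks, where it stood at 0.16. The adjusted p over all genes missed the threshold for the other members fitted, and EED had too few peaks to enter the first of these fits. The fit of the best-ranked peaks rested on 959 genes.

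**Figure D4:**
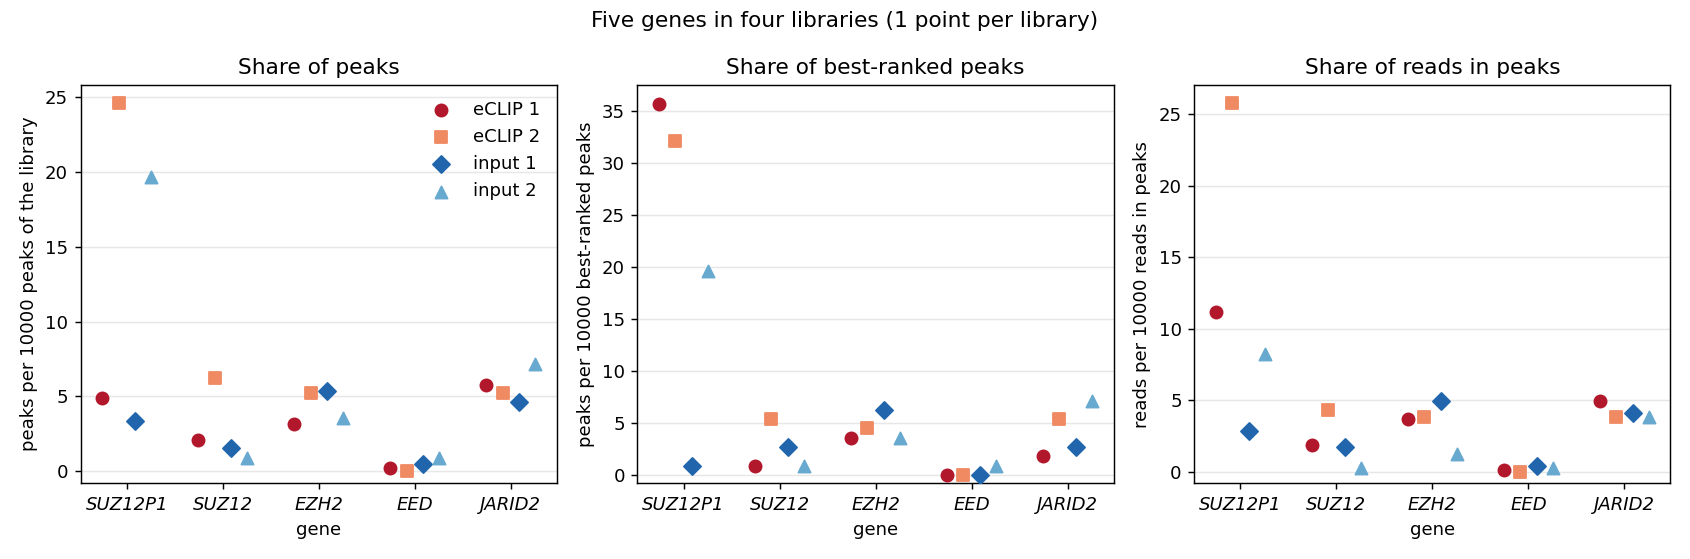
Shares of the 5 genes in each library, 1 point per library, as peaks per 10000 peaks (left), peaks per 10000 of the best-ranked peaks (middle) and reads per 10000 reads in peaks (right). SUZ12P1 stands at 4.88 and 24.6 in eCLIP, against 3.33 and 19.6 in input 1 and 2 on the left, and at 35.7 and 32.1 against 0.893 and 19.6 in the middle.

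The pseudogene was also set against each of the other genes within a library. This ratio does not use the library's total, but it moved with the cut of the lists, as the values in shorter lists show. SUZ12P1 had more peaks than SUZ12 by 1.24 and 1.97 on the log2 scale in eCLIP (0.5 added to each count), and by 1.03 and 3.91 in the inputs. The mean was 1.60 ± 0.52 in eCLIP and 2.47 ± 2.03 in the inputs (SD, n = 2 each), so the groups overlapped, with input 2 resting on 1 SUZ12 peak. By reads in peaks the log2 ratio was 2.57 and 2.56 in the eCLIP libraries against 0.74 and 4.59 in the inputs. Against EZH2 the log2 ratio of peaks was 0.62 and 2.20 in eCLIP against -0.68 and 2.32, and against JARID2 -0.23 and 2.20 against -0.46 and 1.40. Against EED the groups did not overlap, at 4.35 and 7.69 against 2.62 and 3.91. The 7.69 rests on the 0.5 added, since eCLIP 2 listed no EED peak. By reads in peaks the groups were apart against JARID2 too, at 1.18 and 2.74 in eCLIP against -0.50 and 1.10. With peaks limited to an authors' p-value of 0.001 they were apart against SUZ12 (2.60 and 3.46 against -1.22 and 2.32) and JARID2. The SUZ12 ratios of the inputs there rested on 1 SUZ12P1 peak against 3 SUZ12 peaks, and on 2 against 0. EED had 0 peaks at that limit in every library, so the ratio against it follows the SUZ12P1 count alone and is not read. In lists of equal length the groups were apart against EZH2 (3.17 and 2.73 against -2.32 and 2.32) and JARID2. They overlapped against SUZ12 (4.75 and 2.49 against -1.22 and 3.91). EED kept only 1 peak in those lists, in input 2, so the ratio against it is not read there either. In this design the smallest two-sided p of an exact permutation test is 0.333, and no p is given for ratios that hold SUZ12P1. How often other pairs of genes set the groups apart was not counted, so nothing is read from the ratios that did.

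The 2 tested genes whose log2 shares over the 4 libraries lay closest to those of SUZ12P1 were ENSG00000065526.6 and ENSG00000225470.2, at Euclidean distances of 0.54 and 0.60. ENSG00000065526.6, on the plus strand of chromosome 1, took 4.42 and 19.8 per 10000 peaks in eCLIP against 4.28 and 16.1 in input 1 and 2. ENSG00000225470.2, on the plus strand of chromosome X, took 5.86 and 21.2 against 4.28 and 25.9. Both had the same step between libraries numbered 2 and 1, which follows from picking them by these shares and is no separate result.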

How the data were processed

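The authors deposited 1 peak list per library, with an authors' p-value from 0 to 0.05 and a score derived from it for each peak. Per the submitters' processing notes, cutadapt, STAR, SAMtools and hg19 were used, while neither the peak caller nor the annotation is named there. Gene names came with the choice of members, and for all 5 the chromosome of the symbol in RefSeq was that of the peaks. Other PRC2 genes were not analysed here, because no table used here pairs their identifiers with names. Sequences were not used here.

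Peaks and reads in peaks were counted per gene and library (Python 3.11.15). The span of a gene ran from its first to its last peak over the 4 libraries, and shares carry Wilson 95% intervals. Genes with at least 10 peaks entered a limma 3.58.1 fit (R 4.3.3, eBayes with trend, Benjamini-Hochberg adjustment over all genes), which was tested on simulated data. The simulated lists held counting error only, so that test does not cover the wider spread between these libraries. Lists of equal length were cut by p-value and then by reads. The text names all 5 members, their shared sites with most reads (5 for SUZ12P1, 2 for each other gene) and the 2 genes nearest to SUZ12P1. Members, lists and tests were chosen with earlier results of these data known.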

Additional observations from a re-analysis of the deposited data

How the results depend on the processing

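The count of genes called between eCLIP and input was 0, 4 with the replicate block and 8 with voom, and 0 to 695 with 1 library left out. The 695 came without eCLIP replicate 2, a fit that sets a lone library against 2 and assumes that it varies like the others. It was 5 without input replicate 1 and 1 without input replicate 2. With 2 pairs it cannot be shown that the numbers pair the libraries. Deviations of eCLIP 1 and input 1 from their group means correlated at r = 0.397 over 8914 genes, and the replicate block called none of SUZ12, EZH2, EED and JARID2. Neither did any other alternative in which they were fitted. With 1 library left out, the log2 difference of eCLIP minus input ran from -0.79 to 1.60 for SUZ12P1, 0.59 to 1.98 for SUZ12, -0.42 to 0.23 for EZH2, -1.22 to -0.68 for EED and -0.35 to 0.23 for JARID2. The sign turned for EZH2 at a p-value limit of 0.001 (0.91), with touching intervals merged (0.053), by reads in peaks (0.45) and by those outside the mitochondrial chromosome (0.32). It turned for JARID2 at the p-value limit (0.34) and by reads in peaks (0.12). The SUZ12P1 to SUZ12 log2 ratio, eCLIP minus input, was -0.87 and became 2.48 at the p-value limit and 2.28 in lists of equal length. At that limit the eCLIP-only shared peaks numbered 12 in SUZ12P1 and 0 in SUZ12, EZH2 and JARID2, and the last of the 10 equal parts held 0% of EZH2 and 1.49% of JARID2 peaks in eCLIP 1. EED had too few peaks for a fit at the p-value limit and in equal lists. The causes were not tested.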
